A study of Homo sapiens with 4 samples.

Results

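Polycomb repressive complexes keep genes silent through marks on histones. The genes described here encode 10 of their subunits, which are EZH1, EZH2, EED, SUZ12, JARID2 and PHF19 of Polycomb repressive complex 2 (PRC2) and RNF2, BMI1, CBX2 and CBX8 of Polycomb repressive complex 1 (PRC1). They were chosen by name and found by Ensembl identifier among the 64252 genes of the count table. All 10 passed the filter on low counts and were among the 17971 genes tested.

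The RNA came from cells labelled NB4, the name of an established promyelocytic leukemia line known to carry the PML-RARa fusion; treated and control cells bear the same label. Of the 4 libraries, 2 came from cells kept in 8 μM dBET1 for 24 h and 2 from cells kept as long in the solvent, DMSO. dBET1 is a PROTAC, a molecule that joins a ligand of the BET bromodomain proteins to another that binds CRBN, an adaptor of an E3 ubiquitin ligase, so that the BET proteins are degraded. The comparison asks which transcripts had changed in level after a day of this treatment. The counts summed to between 28019956 and 34685645 per library. The labels call the libraries of a group replicates 1 and 2 and do not say whether they came from separate cultures, so the p-values measure the spread between these samples, which may be technical. Since whole cultures were sequenced, fewer cells of a kind and less RNA per cell cannot be told apart.

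The label was checked against markers. ELANE, CTSG, MPO, AZU1 and PRTN3, whose products fill the granules of promyelocytes, together had 17 and 15 counts under DMSO against 55 and 25 under dBET1, and ELANE and CTSG were at 0 in all 4 libraries. A list of 8 promyelocyte markers that also held CD33, LYZ and CEBPE had 6 genes above 3 counts, with a summed level of 29.9 to 30.5 CPM (counts scaled to a common normalized library size) under DMSO and 23.1 to 24.0 CPM under dBET1. By contrast, 13 of 13 erythroid markers, among them GATA1, KLF1 and the globin genes, were above 3 counts, with a summed level of 6518 to 7859 CPM under DMSO and 3843 to 3920 CPM under dBET1. Of 5 T and B cell markers, 3 were above 3 counts, with sums of 29.9 to 33.9 CPM under DMSO and 12.9 to 13.1 CPM under dBET1. The markers thus go against the label, and the cells are called by it below only as labelled. The part that the lower erythroid sum had in the changes described here was not tested.

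PRC2 places methyl groups on a lysine of the histone H3 tail, a mark found on silent developmental genes. EZH1 or EZH2 carries out the reaction, EED reads the mark and stimulates the enzyme, SUZ12 holds the complex together, and the accessory subunits PHF19 and JARID2 belong to 2 alternative forms of the complex that differ in how they reach chromatin. PRC1 attaches ubiquitin to histone H2A through a RING1 or RNF2 protein paired with a PCGF protein such as BMI1, and in its canonical form a CBX protein such as CBX2 or CBX8 binds the PRC2 mark.

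Under dBET1 the transcripts of 6 of the 10 genes fell and those of 2 rose. EED (log2 fold change -1.22), PHF19 (-0.92), BMI1 (-0.66), SUZ12 (-0.46), EZH2 (-0.39) and CBX2 (-0.26) fell, EZH1 (0.94) and JARID2 (0.56) rose, and CBX8 (-0.28) and RNF2 (-0.08) did not pass the test, which was edgeR's quasi-likelihood test with an adjusted p under 0.05 over all genes tested. Of all 17971 genes, 55.6% passed this test, 28% as higher and 27.6% as lower. A large share of all transcripts thus differed, and 8 calls among 10 genes are to be read against that share. The median log2 fold change was -0.33 over the 10 genes, 0.05 over all genes tested and -0.19 over the 9724 genes with a mean of at least 10 CPM, of which 42.9% fell and 22.0% rose. EED alone among the 10 was beyond an absolute log2 fold change of 1 as well, a limit passed by 8.54% of all genes downwards and by 16.9% upwards. In 9 of the 10 genes the DMSO and dBET1 libraries did not overlap in CPM, against 79.3% of all genes. The calls for EZH2, SUZ12 and CBX2 were lost when libraries were scaled to their total counts only, which moved the median of all genes from 0.05 to 0.26 and the share of higher genes among all calls from 50.4% to 65.2%. A change of scaling shifts nearly all genes by the same amount. The distance of EZH2 to those medians, -0.43 under both scalings, was thus set in advance and says nothing about the lost call.

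**Figure D1:**
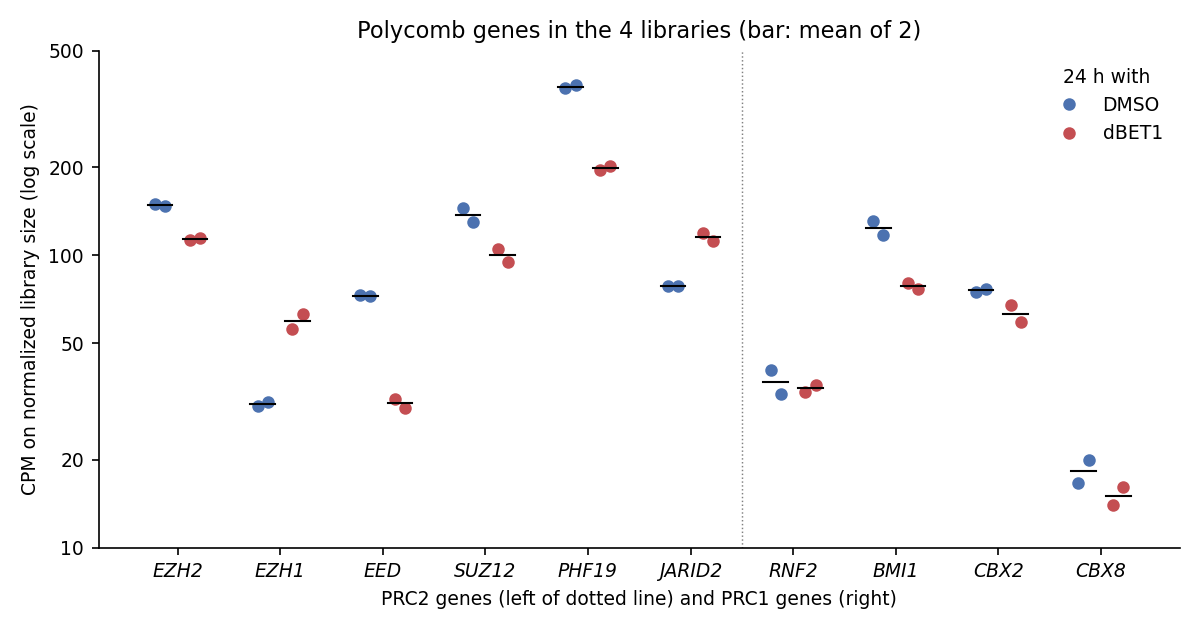
Level of each of the 10 genes in the 4 libraries, in CPM on the normalized library size (log axis), with PRC2 genes left and PRC1 genes right of the dotted line. Points are libraries and bars the mean of 2; the dBET1 points lie below the DMSO points in 7 genes, above them in EZH1 and JARID2, and overlap them in RNF2.

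The stretches of DNA just before the start sites of 6 of these genes are given to show how their promoters differ. They were taken for 3 of the PRC2 core genes that fell (EZH2, EED and SUZ12), for BMI1 of PRC1, which fell, and for EZH1 and JARID2, which rose. The windows of PHF19, which also fell, are not printed. Each holds the 250 bases before a RefSeq start on GRCh38.p14, written 5′ to 3′ on the strand of the gene, and 8 of the 10 genes were matched in that table, with 12 start sites in all; where a gene has more than 1 start, the first in the table is shown. Capitals mark matches, on either strand, to a CCAAT box (CCAAT, or ATTGG on the other strand), an E-box (CACGTG), 1 of 3 forms of the E2F site (TTTCCCGC, TTTGGCGC or TTTCGCGC), an ETS site (CCGGAAG) or a cyclic AMP response element (TGACGTCA); the last motif was added after the sequences were seen.
EZH2, chr7:148884292-148884541, minus strand: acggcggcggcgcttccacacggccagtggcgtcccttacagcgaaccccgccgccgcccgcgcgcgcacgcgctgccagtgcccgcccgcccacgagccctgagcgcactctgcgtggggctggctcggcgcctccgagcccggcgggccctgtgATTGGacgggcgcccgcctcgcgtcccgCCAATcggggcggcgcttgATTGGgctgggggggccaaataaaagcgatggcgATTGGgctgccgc
EED, chr11:86244503-86244752, plus strand: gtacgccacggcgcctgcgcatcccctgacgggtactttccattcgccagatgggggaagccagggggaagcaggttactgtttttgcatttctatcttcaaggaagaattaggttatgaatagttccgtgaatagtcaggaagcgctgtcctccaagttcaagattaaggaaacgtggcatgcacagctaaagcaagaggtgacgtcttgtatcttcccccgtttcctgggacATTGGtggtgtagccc
SUZ12, chr17:31936757-31937006, plus strand: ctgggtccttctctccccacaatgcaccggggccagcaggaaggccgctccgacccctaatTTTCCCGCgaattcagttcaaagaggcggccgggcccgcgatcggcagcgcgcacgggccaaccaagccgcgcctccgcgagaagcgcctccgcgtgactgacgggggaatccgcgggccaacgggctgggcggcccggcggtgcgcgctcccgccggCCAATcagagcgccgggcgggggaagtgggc
BMI1, chr10:22320849-22321098, plus strand: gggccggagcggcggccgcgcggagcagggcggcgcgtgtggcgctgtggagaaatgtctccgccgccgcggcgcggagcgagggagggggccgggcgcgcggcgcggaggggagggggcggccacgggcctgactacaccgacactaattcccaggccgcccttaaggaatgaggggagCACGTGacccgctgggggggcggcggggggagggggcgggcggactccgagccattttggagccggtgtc
EZH1, chr17:42745041-42745290, minus strand: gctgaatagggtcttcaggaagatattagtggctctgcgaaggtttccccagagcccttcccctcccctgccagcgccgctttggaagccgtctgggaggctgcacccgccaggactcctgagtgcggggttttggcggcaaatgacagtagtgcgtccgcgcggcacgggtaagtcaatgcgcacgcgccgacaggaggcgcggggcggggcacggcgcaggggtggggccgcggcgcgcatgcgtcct
JARID2, chr6:15245819-15246068, plus strand: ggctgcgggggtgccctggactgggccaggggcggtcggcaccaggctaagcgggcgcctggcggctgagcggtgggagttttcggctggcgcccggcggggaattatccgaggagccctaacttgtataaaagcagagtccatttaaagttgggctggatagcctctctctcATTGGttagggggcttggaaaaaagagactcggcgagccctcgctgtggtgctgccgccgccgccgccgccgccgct

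The windows of EZH2, SUZ12 and BMI1 held 72.8% to 76.8% G and C and 34 to 38 CpG sites, and those of EZH1 and JARID2 held 67.6% and 65.6% with 26 and 22 CpG sites. The window of EED held 51.2% and 11 CpG sites, against medians of 58% and 11 over the 35116 RefSeq windows of this length. The EED window lies wholly inside the GENCODE gene, in introns of transcripts that begin further upstream. The EZH2 window held 4 CCAAT boxes, and the windows of EED, SUZ12 and JARID2 held 1 each. SUZ12 also held TTTCCCGC, an E2F site, and BMI1 held an E-box. The EZH1 window held none of the 5 motifs. EZH2, BMI1 and JARID2 each have another start whose window is not printed. Those of EZH2 and BMI1 held none of the motifs, and that of JARID2 held the cyclic AMP response element in 2 places. This other JARID2 window held 74.8% G and C and 34 CpG sites, within the ranges given for EZH2, SUZ12 and BMI1. The other windows of EZH2 and BMI1 held 79.6% with 39 and 91.6% with 54 CpG sites. PHF19 has 2 windows, also not printed, each with a CCAAT box. The first held the ETS site as well and the other an E2F site. Over all 12 start sites a CCAAT box was found in 6, an E2F site in 2 and the E-box, ETS site and cyclic AMP response element in 1 each. Of the 35116 windows, 32.0% held CCAAT, 6.34% the E-box, 2.32% an E2F site, 8.52% the ETS site and 1.65% the cyclic AMP response element. The matches describe the letters only and were not set against the changes by any test.

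EZH2 and EZH1, the alternative enzymes of PRC2, moved in opposite directions. EZH2 (ENSG00000106462, chromosome 7, 148807257 to 148884321, minus strand, hg38) is the enzyme of dividing cells. It was at 149.9 and 147 CPM in the DMSO libraries and at 112 and 115 CPM in the dBET1 libraries. Both treated libraries were low, and the log2 fold change was -0.39 (SE 0.0727, edgeR adjusted p = 0.00289). The call was lost without dBET1 replicate 1, with an adjusted p of 0.0590 by edgeR. EZH1 (ENSG00000108799, chromosome 17, 42700275 to 42745049, minus strand) is the form that persists in cells that no longer divide. It was at 30.6 and 31.4 CPM under DMSO and at 55.9 and 63.1 CPM under dBET1. Both treated libraries were high, by 1.92-fold on average (log2 fold change 0.94, SE 0.0990, edgeR adjusted p = 0.000165). EZH1 rose under each of 11 other settings, by 0.84 to 1.15 on the log2 scale.

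The ratio of EZH2 to EZH1 counts within a library does not depend on how libraries are scaled. It was 4.90 and 4.67 under DMSO and 2.01 and 1.82 under dBET1, so the groups were apart and the ratio fell by 1.33 on the log2 scale, against a pooled SD of 0.0807 between replicates. The exact two-sided permutation test gave p = 0.333, the smallest p that 2 libraries against 2 allow, and 0.5 after adjustment over 6 ratios, so no ratio could pass 0.05. Per kilobase of the MANE transcript, the reference isoform, EZH1 made up 10.7% ± 0.329 (SD, n = 2) of the EZH1 and EZH2 level under DMSO and 23.1% ± 1.27 under dBET1. With the summed length of all exons in place of the MANE transcript these shares were 24.4% and 44.7%. The 2 genes together came to 62.6 ± 0.686 CPM per kb under DMSO and 55.6 ± 1.70 under dBET1 by MANE length, and to 18.2 and 19.0 CPM per kb by exon length, so that the direction of the sum depended on the length used.

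EED and SUZ12, the non-catalytic core of PRC2, both fell. EED (ENSG00000074266, chromosome 11, 86201212 to 86278813, plus strand) was at 73.0 and 72.6 CPM under DMSO and at 32.3 and 30.1 CPM under dBET1. The treated libraries stood at 0.428 of the DMSO level (log2 fold change -1.22, 95% interval -1.43 to -1.02, edgeR adjusted p = 3.34e-05), and EED had the smallest p of the genes that fell among the 10. SUZ12 (ENSG00000178691, chromosome 17, 31937007 to 32001038, plus strand) was at 145 and 130.0 CPM under DMSO and at 105 and 95 CPM under dBET1. Its groups did not overlap, but the DMSO libraries differed by more than those of EED, and the log2 fold change was -0.46 (SE 0.0914, edgeR adjusted p = 0.00365). Without dBET1 replicate 2 the adjusted p of SUZ12 was 0.0533 by edgeR. A near-identical copy, SUZ12P1, held 496, 464, 500 and 535 counts in the 4 libraries against 2900 to 4745 for SUZ12, and how reads were divided between them is not known. Other copies and overlapping genes of the 10 members held at most 15 counts each.

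The histone-binding subunits RBBP4 and RBBP7, which PRC2 shares with other chromatin complexes, fell with EED and SUZ12. RBBP7 went from 243 ± 0.784 CPM (SD, n = 2) under DMSO to 128 ± 3.08 under dBET1, a log2 fold change of -0.92. RBBP4 went from 173 ± 2.68 to 119 ± 2.64 CPM, a change of -0.54. Of the 9724 genes with a mean of at least 10 CPM, 42.9% fell and 22.0% rose. Of the 6 core PRC2 genes, 5 thus fell and EZH1 rose. Among these 6, EED took 13.6% ± 0.111 of the summed level per kb of MANE transcript under DMSO and 9.10% ± 0.504 under dBET1, while SUZ12 took 11.9% ± 0.794 and 13.6% ± 1.04. With exon lengths EED took 10.3% and 6.48%.

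The accessory subunits that define the 2 forms of PRC2 went opposite ways. PHF19 (ENSG00000119403, chromosome 9, 120855651 to 120894896, minus strand) is a Polycomb-like protein of the form called PRC2.1 and had the highest level of the 10 genes. It was at 373 and 381 CPM under DMSO and at 196 and 202 CPM under dBET1, with both treated libraries near 0.527 of the control level (log2 fold change -0.92, SE 0.0688, edgeR adjusted p = 3.6e-05). JARID2 (ENSG00000008083, chromosome 6, 15246069 to 15522042, plus strand) binds nucleosomes in the form called PRC2.2. It was at 78.5 CPM in both DMSO libraries and at 119 and 112 CPM under dBET1, a log2 fold change of 0.56 (SE 0.0788, edgeR adjusted p = 0.000699). Both calls held under the same 11 settings, with values of -0.98 to -0.71 for PHF19 and 0.51 to 0.77 for JARID2.

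MTF2 and AEBP2, set beside PHF19 and JARID2 as ratios, moved less. MTF2, another Polycomb-like protein, fell by 0.35 on the log2 scale (54.1 ± 3.78 to 42.6 ± 1.31 CPM), a call that was lost without either dBET1 library and with total counts only. The ratio of PHF19 to MTF2 counts was 6.57 and 7.42 under DMSO and 4.50 and 4.84 under dBET1, a log2 change of -0.58 (pooled SD 0.102, exact permutation p = 0.333, adjusted 0.5). PHF19 took 80.7% ± 0.189 of the level per kb of the 3 Polycomb-like genes under DMSO and 73.0% ± 2.02 under dBET1. AEBP2, the partner of JARID2 in PRC2.2, was at 27.2 and 25.9 CPM under DMSO and at 25.1 and 22.3 CPM under dBET1 and did not pass the test (log2 fold change -0.16, 95% interval -0.43 to 0.11). The ratio of JARID2 to AEBP2 counts was 2.88 and 3.03 under DMSO and 4.75 and 5.02 under dBET1, a log2 change of 0.72 (pooled SD 0.0545, exact permutation p = 0.333, adjusted 0.5).

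Of the 9 PRC2 partner genes, 8 were tested, 4 fell (50%), 1 rose (12.5%) and the median log2 fold change was -0.34. The shares were 42.9% and 22.0% among genes with a mean of at least 10 CPM, with a median of -0.19. EPOP, which links PRC2.1 to elongin, fell from 11.9 ± 0.555 to 6.26 ± 0.228 CPM (-0.92), and RBBP7, RBBP4 and MTF2 were the others that fell. LCOR, whose locus also encodes a PRC2.1 subunit, rose from 13.1 ± 3.93 to 24.0 ± 1.74 CPM (0.87). EZHIP, an inhibitor of PRC2 that is mainly made in the germ line, had 0 counts in all 4 libraries, where 3 counts would be 0.0919 to 0.107 CPM.

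**Figure D2:**
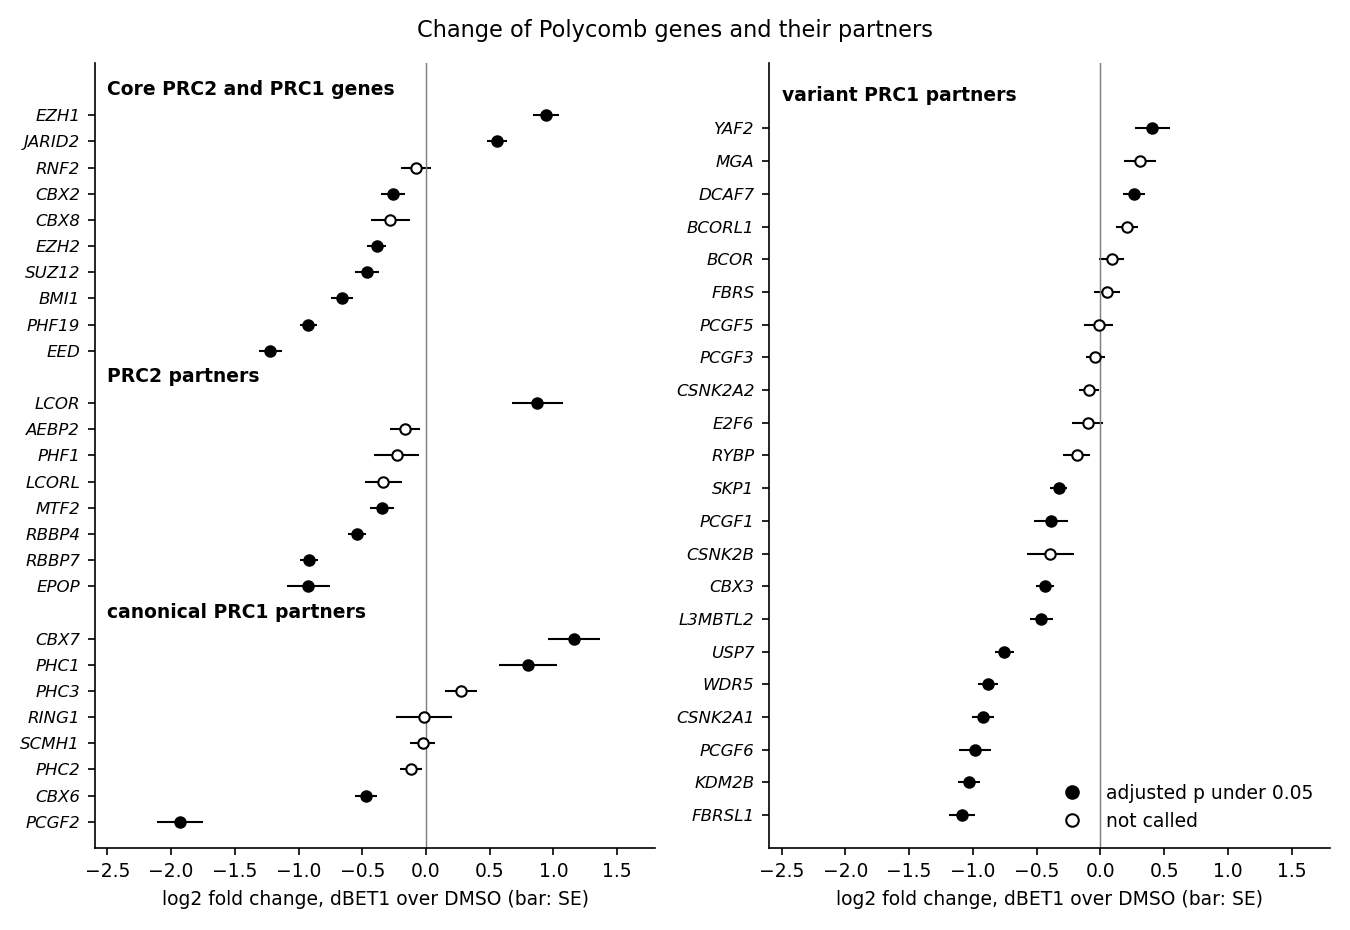
Log2 fold change (dBET1 over DMSO) of the 10 genes and of the tested PRC2, canonical PRC1 and variant PRC1 partners, sorted by value within each list, with bars for the SE. Filled points passed an adjusted p under 0.05 and open points did not; PCGF2 lies farthest to the left at -1.93 and CBX7 farthest to the right at 1.16.

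In PRC1, BMI1 and CBX2 fell, while RNF2 and CBX8 did not pass the test. RNF2 (ENSG00000121481, chromosome 1, 185045526 to 185102603, plus strand), the main ubiquitin ligase subunit, was at 40.5 and 33.5 CPM under DMSO and at 34.1 and 36.0 CPM under dBET1. The groups overlapped, and the log2 fold change was -0.08 with a 95% interval of -0.35 to 0.19 (edgeR adjusted p = 0.593). The value was 0.04 without DMSO replicate 1 and 0.13 with libraries scaled to total counts only, so RNF2 had no stable direction. RING1, its paralogue, was at 9.78 and 15.4 CPM under DMSO and at 12.6 and 12.3 CPM under dBET1 (log2 fold change -0.02, 95% interval -0.52 to 0.49). The ratio of RNF2 to RING1 counts was 4.15 and 2.18 under DMSO and 2.71 and 2.94 under dBET1, so that the treated libraries lay between the controls (exact permutation p = 1, adjusted 1).

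BMI1 (ENSG00000168283, chromosome 10, 22321099 to 22331484, plus strand), a PCGF protein of canonical PRC1 known for sustaining stem cell renewal, was at 131 and 118 CPM under DMSO and at 80.3 and 76.5 CPM under dBET1. Both treated libraries were low (log2 fold change -0.66, SE 0.0864, edgeR adjusted p = 0.000469). The call held under the 11 other settings, with values of -0.77 to -0.45. PCGF2, the closest relative of BMI1, fell further than any of the 10 genes, from 30.7 ± 0.538 to 8.06 ± 2.08 CPM (log2 fold change -1.93, edgeR adjusted p = 9.53e-05). CISD3, which overlaps PCGF2 on the opposite strand, went from 1270 and 1308 counts to 616 and 624, and whether the counts were assigned by strand is not stated. The ratio of BMI1 to PCGF2 counts was 4.31 and 3.78 under DMSO and 12.2 and 8.03 under dBET1, a log2 change of 1.29 (pooled SD 0.315, exact permutation p = 0.333, adjusted 0.5).

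The 6 PCGF genes each define a kind of PRC1, and their summed level per kb of MANE transcript went from 105 ± 4.36 to 72.02 ± 0.604 CPM per kb. BMI1 took 33.3% of it under DMSO and 30.8% under dBET1, the highest share in both groups. PCGF2 took 11.1% ± 0.656 and 4.25% ± 1.06. PCGF3 took 16.9% and 24.0%, PCGF5 took 7.04% and 10.2%, PCGF1 took 19.6% and 21.9%, and PCGF6 took 11.98% and 8.87%. PCGF3 and PCGF5 did not pass the test themselves, with log2 fold changes of -0.04 and -0.01, so their larger shares came with a smaller total.

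**Figure D3:**
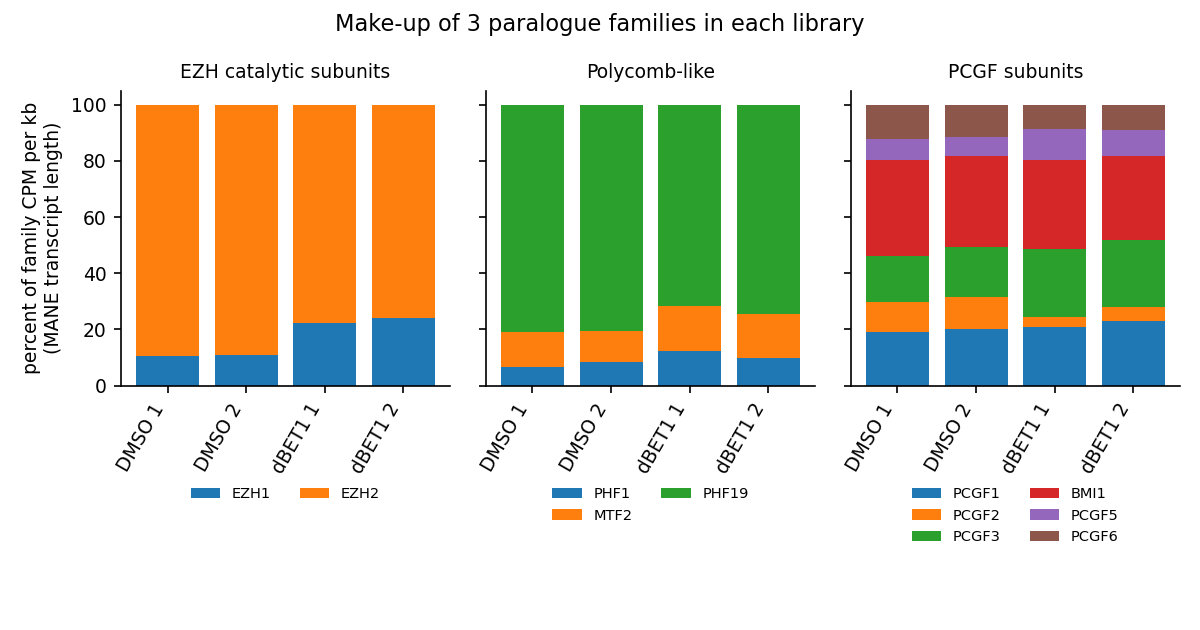
Make-up of 3 families in each library, as the percent of the family's summed CPM per kb of MANE transcript. Stacked bars are the 4 libraries; the EZH1 share is 10.5% and 10.9% under DMSO and 22.2% and 24.0% under dBET1 and BMI1 has the largest share of the PCGF genes in all 4.

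CBX2 and CBX8, chromobox proteins that read the PRC2 mark, lie 4148 bp apart on chromosome 17 and had similar fold changes, of which only that of CBX2 passed the test. CBX2 (ENSG00000173894, 79778148 to 79787983, plus strand) was at 75.1 and 76.6 CPM under DMSO and at 67.4 and 59.0 CPM under dBET1. The groups did not overlap, and the log2 fold change was -0.26 with a 95% interval of -0.48 to -0.04 (edgeR adjusted p = 0.0447). This call was the least stable of the 10, with adjusted p of 0.0845 and 0.380 by edgeR without dBET1 replicate 1 and 2. CBX8 (ENSG00000141570, 79792132 to 79801683, minus strand) was at 16.6 and 20.03 CPM under DMSO and at 13.99 and 16.2 CPM under dBET1. The groups were apart but close, and the log2 fold change of -0.28 had a 95% interval of -0.63 to 0.08 (edgeR adjusted p = 0.157). Without DMSO replicate 1 it was -0.44 and passed the test (edgeR adjusted p = 0.0367). The ratio of CBX2 to CBX8 counts was 4.52 and 3.82 under DMSO and 4.82 and 3.65 under dBET1, with overlapping groups and a log2 change of 0.01 (pooled SD 0.235, exact permutation p = 1, adjusted 1).

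Of the further chromobox genes tested among the canonical PRC1 partners, CBX7, on another chromosome, rose from 118 and 102 counts to 261 and 229 (log2 fold change 1.16, edgeR adjusted p = 0.00203). A long noncoding RNA that overlaps it on the opposite strand, ENSG00000279833, went from 5 and 12 counts to 33 and 53. CBX6 fell from 67.3 ± 1.86 to 48.6 ± 0.234 CPM (-0.47, edgeR adjusted p = 0.00226).

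**Figure D4:**
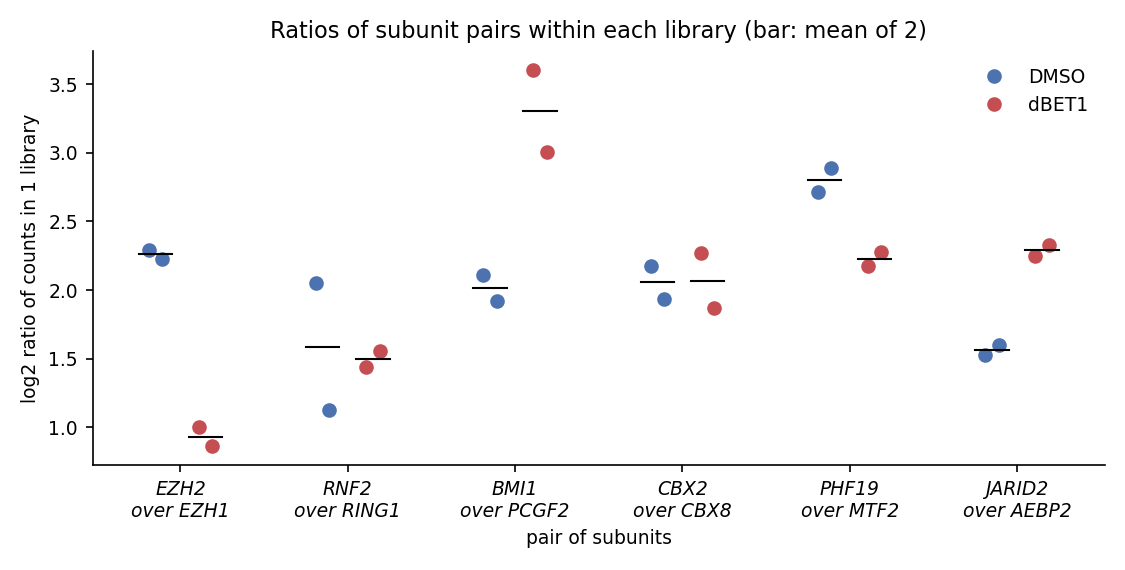
Log2 ratio of the counts of 6 pairs of subunits within each library, which is free of library scaling. Points are libraries and bars the mean of 2; EZH2 over EZH1 and PHF19 over MTF2 are lower under dBET1, BMI1 over PCGF2 and JARID2 over AEBP2 higher, and the other 2 ratios overlap.

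Over 11 canonical PRC1 partners, 8 were tested, 2 rose (25%), 2 fell (25%) and the median log2 fold change was -0.02. The shares were 22.0% and 42.9% among genes with a mean of at least 10 CPM. Beside CBX7, PHC1 rose, a Polyhomeotic protein that links PRC1 complexes, going from 3.97 ± 0.536 to 6.93 ± 1.04 CPM (0.80), a call lost without dBET1 replicate 2, which left 1 that rose. PHC2, which took 87.6% of the Polyhomeotic level per kb under DMSO and 83.1% under dBET1, did not pass the test (-0.12). SCML1, SCML2 and SCML4 had 0 counts in all libraries.

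The variant PRC1 complexes lack the CBX readers of canonical PRC1 and are mainly built on other PCGF proteins. Of their 23 listed partners 22 were tested, 10 fell, 2 rose and the median was -0.26. FBRSL1, a subunit of the PCGF3 and PCGF5 complexes, fell by 1.09 on the log2 scale (179 ± 24.0 to 84.4 ± 0.874 CPM). KDM2B, which brings the PCGF1 complex to unmethylated CpG islands, fell by 1.03 (107 ± 0.126 to 52.1 ± 3.20 CPM), and RNF34, which overlaps it on the opposite strand, had 1883 and 1706 counts under DMSO and 1358 and 1529 under dBET1. CSNK2A1, a catalytic subunit of casein kinase 2, fell by 0.92, and WDR5 fell by 0.88. YAF2 rose by 0.41 (13.7 ± 1.12 to 18.2 ± 0.00784 CPM) and DCAF7 by 0.27, both calls that were lost without either dBET1 library and, for YAF2, without DMSO replicate 2. AUTS2 was at 0 in all libraries. The number of variant partners that rose ran from 0, without either dBET1 library, to 5, without DMSO replicate 1. Over all 3 partner lists, 38 of 43 genes were tested, of which 16 fell (42.1%) and 5 rose (13.2%), with a median of -0.21. Of the 9724 genes with a mean of at least 10 CPM 42.9% fell and 22.0% rose, with a median of -0.19, so the share of partners that fell was near that background.

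Levels were compared among the 10 genes per kilobase of MANE transcript. Under DMSO the order was PHF19 (90.8 CPM per kb), EZH2 (55.9), BMI1 (35.1), EED (34.9), SUZ12 (30.6), CBX2 (16.4), JARID2 (13.1), RNF2 (10.9), EZH1 (6.69) and CBX8 (4.88). BMI1 and EED overlapped between libraries, and the other neighbours were apart. Under dBET1 the order was PHF19 (47.9), EZH2 (42.7), SUZ12 (22.2), BMI1 (22.2), JARID2 (19.3), EED (14.9), CBX2 (13.7), EZH1 (12.8), RNF2 (10.3) and CBX8 (4.02). There SUZ12 overlapped BMI1, EED overlapped CBX2 and CBX2 overlapped EZH1. EED thus went from the fourth place to the sixth, while JARID2 went from the seventh to the fifth. With exon lengths PHF19 kept the first place in both groups, but EZH2 took the fourth under DMSO and the sixth under dBET1. By those lengths EED went from place 7 to place 9 and JARID2 from place 6 to place 2, so the places depended on the length used.

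Transcript length moved with the change over the whole transcriptome. Among genes with a mean of at least 10 CPM, the 2894 with the shortest MANE transcripts, up to 2484 bp, had a median log2 fold change of -0.45. The 2892 of middle length, up to 4521 bp, had a median of -0.19, and the 2894 longer ones a median of -0.01. The DMSO libraries differed from each other along the same line, with a median log2 of replicate 1 over replicate 2 of -0.10 in the short, 0.03 in the middle and 0.14 in the long genes. Of the 10 genes, EED has a short transcript (2088 bp). EZH2 (2654 bp), RNF2 (3407 bp), BMI1 (3540 bp), CBX8 (3752 bp), PHF19 (4149 bp) and SUZ12 (4495 bp) have middle ones, and CBX2 (4628 bp), EZH1 (4633 bp) and JARID2 (6003 bp) long ones. The part of transcript length in the changes of these genes was not tested.

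The enzymes that remove or oppose the Polycomb marks moved both ways. PR-DUB takes the PRC1 ubiquitin mark off histone H2A. Of its 11 listed genes 10 were tested, 3 rose (30%), 3 fell (30%) and the median log2 fold change was -0.06. Of all genes tested 28% rose and 27.6% fell, so both shares were near that background. They were less near the shares among genes with a mean of at least 10 CPM, of which 22.0% rose and 42.9% fell. BAP1, the deubiquitinase itself, fell from 147 ± 1.58 to 98.1 ± 5.83 CPM (-0.59), and HCFC1, which binds BAP1, fell from 462 ± 6.91 to 211 ± 6.34 CPM (-1.13). FOXK2 also fell (-0.30). MBD6, a methyl-CpG-binding domain protein of the complex, rose from 36.1 ± 3.44 to 78.7 ± 8.02 CPM (1.12), FOXK1 rose by 0.51 and OGT by 0.32. The calls for FOXK2 and OGT were lost without either dBET1 library, that of OGT also without DMSO replicate 2 and that of FOXK2 with total counts only. ASXL3 had 0 counts in all libraries.

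Of 26 genes for opposing enzymes, all 26 tested, 9 fell (34.6%), 4 rose (15.4%) and the median was -0.12. Among genes with a mean of at least 10 CPM 42.9% fell and 22.0% rose. Both demethylases of the PRC2 mark rose, KDM6A from 34.5 ± 6.61 to 47.9 ± 0.218 CPM (0.47, edgeR adjusted p = 0.0176) and KDM6B from 29.6 ± 0.114 to 42.4 ± 0.0275 CPM (0.52, edgeR adjusted p = 0.00232). KMT2C, a methyltransferase of enhancers, rose by 0.59 and the acetyltransferase CREBBP by 0.43. The KDM6A call was lost without either dBET1 library and that of CREBBP without dBET1 replicate 2, while KDM6B and KMT2C kept theirs without any 1 library. The chromatin remodelling subunits SMARCB1 (-0.88), SMARCD2 (-0.60) and SMARCA4 (-0.53) and the methyltransferase subunit ASH2L (-0.51) fell. The number that rose ran from 2, without dBET1 replicate 2, to 9, without DMSO replicate 1.

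The HOX genes, classical targets of Polycomb repression, were at or near 0 in the HOXA and HOXD clusters and carried counts in HOXB and HOXC. Of 39 HOX genes, 17 had 0 counts in all 4 libraries, among them 11 of 11 HOXA genes and 6 of 9 HOXD genes, while 20 had more than 3 counts in some library and 16 were tested. Of 8 tested HOXB genes 6 fell and 1 rose, with a median log2 fold change of -0.46. Over all 16 tested HOX genes 37.5% fell and 12.5% rose, against 27.6% and 28% of all genes tested. Of genes with a mean of at least 10 CPM, 42.9% fell and 22.0% rose. The HOX share that fell thus lay above the first background and below the second. HOXB9, the HOX gene with the highest count, fell from 158 ± 0.164 to 85.4 ± 0.302 CPM (-0.88, edgeR adjusted p = 5.49e-05). HOXB2 (-0.40), HOXB4 (-0.36) and HOXB7 (-0.53) fell, and HOXB3 rose from 36.3 ± 0.784 to 46.7 ± 3.13 CPM (0.36). Of 8 tested HOXC genes HOXC12 rose, from 2.01 ± 0.725 to 3.83 ± 0.0474 CPM (0.93), and the other 7 did not pass the test. Over all HOX genes 6 fell and 2 rose, but only 2 fell without either dBET1 library, and 1 fell when libraries were scaled to total counts only. Of the named HOX genes, HOXB9 alone kept its call without each library in turn.

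**Figure D5:**
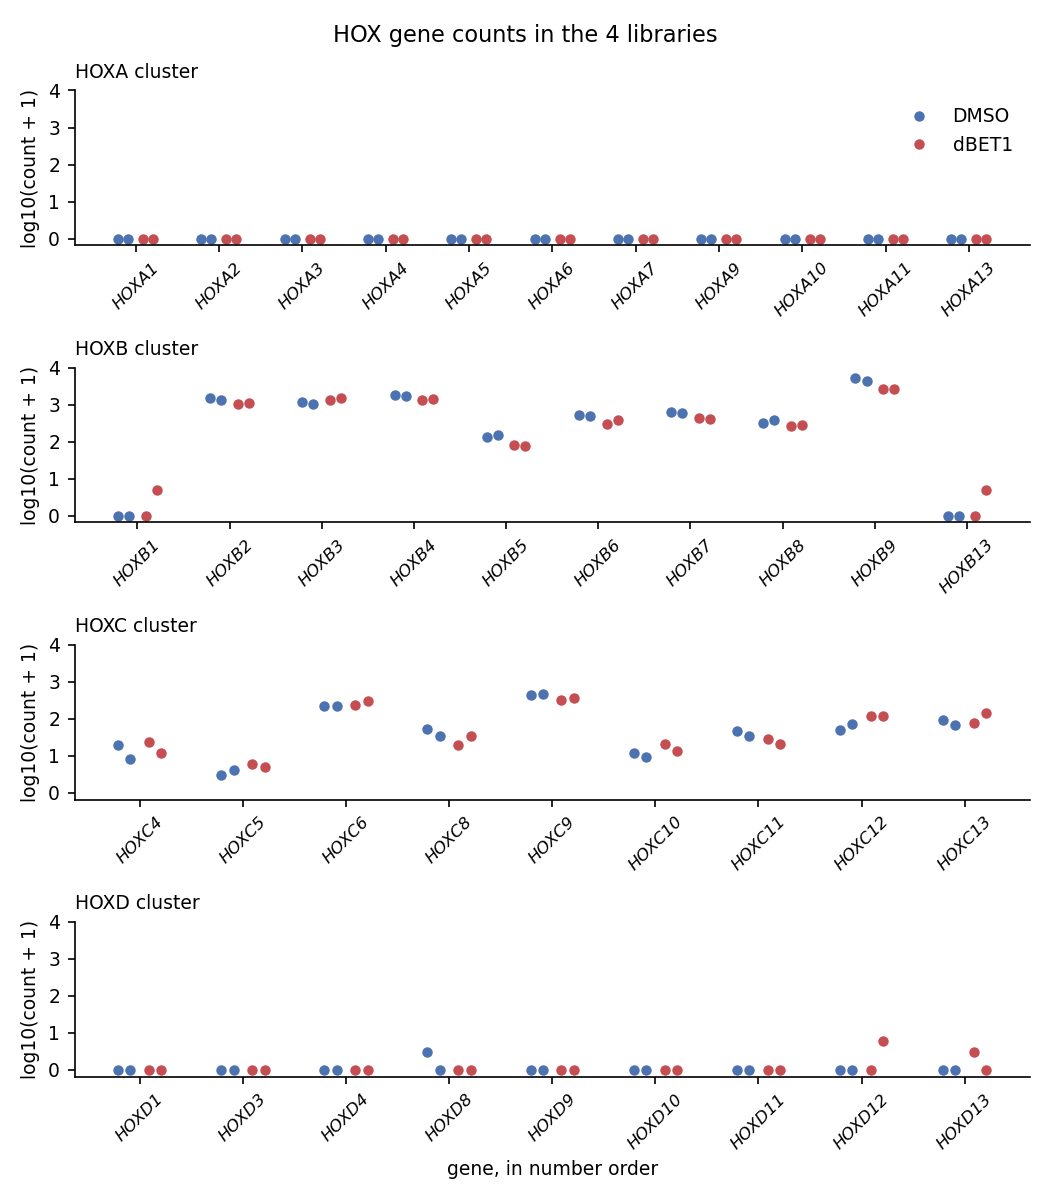
Counts of the 39 HOX genes in the 4 libraries, as log10(count + 1), by cluster. Points are libraries; the HOXA genes lie at 0 throughout, and HOXB2 to HOXB9 carry counts in all 4 libraries.

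Other developmental regulators that Polycomb holds silent in many cell types were mostly silent here too. Of 63 listed genes, 40 had 0 counts in all libraries and 43 had at most 3 counts in each. The 12 tested had a median of -0.08, and 4 rose and 4 fell (33.3% each). Of all genes tested, 28% rose and 27.6% fell. TBX2 and GATA6 passed the count filter through their dBET1 libraries, so their place among the genes tested depended on the rise itself. With at least 10 counts required in every library, 10 were tested, of which 2 rose and 2 fell. TBX2, a T-box factor, had 0 counts in both DMSO libraries and 14 and 13 under dBET1, which is at least 4.49-fold higher than a floor of 3 counts per library. GATA6, an endoderm factor, rose from 0.336 ± 0.129 to 1.44 ± 0.741 CPM (4.29-fold, or 2.72-fold without dBET1 replicate 1), PAX8 from 7.72 ± 0.00063 to 13.2 ± 1.93 CPM (log2 fold change 0.77) and PAX6 from 8.15 ± 0.603 to 12.4 ± 0.779 CPM (log2 fold change 0.60). HAND2 (-0.85), IRX5 (-0.75), TWIST1 (-0.70) and FOXL2 (-0.29) fell. The calls were lost without dBET1 replicate 1 for GATA6, PAX8 and HAND2, without either dBET1 library for PAX6 and FOXL2, and without DMSO replicate 2 or dBET1 replicate 2 for IRX5. TBX2 no longer passed the count filter without either dBET1 library and was not tested there, while TWIST1 kept its call. The number that rose ran from 0, without dBET1 replicate 1, to 4. For the 43 genes at or under the floor no change was detectable at this depth.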

How the data were processed

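Per the labels and the paper's methods, total RNA of 2 DMSO and 2 dBET1 samples was sequenced as paired reads of 150 bp. The submitters' notes name HISAT2 2.2.0 and hg38, and the paper adds StringTie. The authors deposited unnormalized whole-number counts per Ensembl gene, and how the StringTie output became counts, with which strand setting, is not given in the sources used here. If both mates were counted, counts are doubled, so counts divided by 2 were tried.

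Columns were matched to samples by the group, hour and replicate in their names, with NC taken as DMSO, and 0 were left out. GENCODE 44 gave symbols and positions for 56105 of 64252 identifiers, and the others held 2.57% of the counts. edgeR 4.0.16 in R 4.3.3 filtered genes (filterByExpr), scaled them by TMM and ran the quasi-likelihood test with the group alone and Benjamini-Hochberg adjustment over 17971 genes. The SE is the log2 fold change over the square root of F, and intervals are 95% intervals of the fit. Ratios within libraries were compared by exact two-sided permutation. Run on 3 simulated data sets of 17616 to 17634 genes for this comparison, 200 of them changed by a log2 of 1, the steps called 92.7% of them and 11 unchanged genes on average. Replicates differed by more than counting error (chi-square over its degrees of freedom 23.6 between DMSO and 8.14 between dBET1 libraries), so each counts as 1 sample.

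The 11 other settings for a gene were each of the 4 libraries left out, counts divided by 2, the replicate number as a block, a minimum of 10 counts per sample, no count filter, scaling by total counts only, edgeR with DESeq2 size factors, and DESeq2 1.42.0. For counts of calls an adjusted p under 0.01 was tried too. The 10 members and the lists were chosen with earlier results of these data known. Named were the members, the genes of the 6 ratios and, of each other list, up to 4 called genes per direction with the smallest p. Further PCGF and PHC genes complete a family, and genes of copies or overlaps are named as such. A gene of the lists is not reported here. Groups of 2 were too small for a test of outlying samples.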

Additional observations from a re-analysis of the deposited data

How the results depend on the processing

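Of 110 values of the 10 genes under the 11 other settings, 97 kept direction and side of the threshold, 10 lost the call, 1 gained it and 2 changed sign. EZH1, EED, JARID2, PHF19 and BMI1 kept theirs under all 11. With total counts only, 3 of the 10 genes fell in place of 6. EZH2 lost its call there (-0.18, adjusted p = 0.0815) and without dBET1 replicate 1 (adjusted p = 0.0590). SUZ12 lost it there (-0.25, 0.0532) and without dBET1 replicate 2 (0.0533). CBX2 lost it there (-0.053, 0.661), with no count filter (-0.32, 0.0652), with at least 10 counts (-0.19, 0.115), with counts divided by 2 (-0.23, 0.0660) and without either dBET1 library (0.0845 and 0.380). RNF2 changed sign with total counts only (0.13) and without DMSO replicate 1 (0.04), neither called. CBX8 gained a call without DMSO replicate 1 (-0.44, 0.0367). What lay behind these lost and gained calls was not tested.

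Of 48 called genes named from the lists, 20 lost the call without at least 1 library, 1 more (TBX2) no longer passed the count filter without either dBET1 library, 8 lost it with total counts only and 0 changed sign under any setting. The lists moved more. With total counts only, 5 variant PRC1 partners, 8 opposing enzymes and 3 other repressive methyltransferases rose, and 3 of the last, 1 HOX gene and 2 other developmental genes fell. With no count filter 0 PRC2 partners, 1 canonical PRC1 partner, 0 variant PRC1 partners, 2 opposing enzymes, 0 HOX genes and 2 developmental genes rose. With at least 10 counts 4 variant partners, 7 opposing enzymes and 2 developmental genes rose, and 4 other methyltransferases and 2 developmental genes fell. With counts divided by 2, 4 variant partners rose and 2 developmental genes fell. By DESeq2 0 variant partners and 1 HOX gene rose and 2 developmental genes fell, while over all genes 3750 rose and 4665 fell. At an adjusted p under 0.01, 1 canonical partner, 0 variant partners, 0 HOX genes and 2 developmental genes rose, 3 methyltransferases, 2 HOX genes and 1 developmental gene fell, and over all genes 3252 rose.

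Leaving out 1 library gave 2 to 2 members higher and 4 to 7 lower. The higher and lower counts were 1 to 1 and 3 to 5 for PRC2 partners, 1 to 3 and 2 to 3 for canonical PRC1, 0 to 5 and 8 to 12 for variant PRC1, 2 to 4 and 2 to 4 for PR-DUB, 2 to 9 and 7 to 13 for opposing enzymes, 1 to 2 and 3 to 8 for other methyltransferases, 0 to 2 and 2 to 8 for HOX genes, 0 to 4 and 2 to 5 for developmental genes, and 3356 to 5118 and 3777 to 5343 for all genes, with 3356 without dBET1 replicate 2. The log2 fold changes ran from -0.43 to -0.38 for EZH2, -0.57 to -0.41 for SUZ12, -0.24 to 0.039 for RNF2, -0.37 to -0.18 for CBX2 and -0.44 to -0.17 for CBX8. The log2 ratios ran from -1.40 to -1.25 for EZH2 over EZH1, -0.55 to 0.37 for RNF2 over RING1, 0.99 to 1.59 for BMI1 over PCGF2, -0.19 to 0.21 for CBX2 over CBX8, -0.67 to -0.49 for PHF19 over MTF2 and 0.68 to 0.76 for JARID2 over AEBP2. With the replicate number as a block, 2 of the 10 genes rose, 6 fell, and over all genes 4976 rose and 4897 fell, and of the genes named above FOXL2 alone lost its call. Same-numbered libraries did not deviate together over the genes (correlation -0.01). With 2 libraries per group this does not settle whether they were paired.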

Other observations

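Other repressive enzymes of chromatin were counted beside the Polycomb genes. All 14 listed methyltransferases of histone H3 lysine 9, histone H4 and DNA with their cofactors were tested. Of these 7 fell (50%) and 1 rose (7.14%), with a median log2 fold change of -0.23. Among genes with a mean of at least 10 CPM 42.9% fell and 22.0% rose, with a median of -0.19. DNMT1, which copies DNA methylation after replication, fell from 555 ± 4.46 CPM (SD, n = 2) to 337 ± 12 CPM (-0.72, edgeR adjusted p = 0.000103). Its cofactor UHRF1 fell from 172 ± 2.31 to 123 ± 2.39 CPM (-0.48). EHMT2 (-0.86) and EHMT1 (-0.33), which methylate histone H3 at lysine 9, fell too. DNMT3A, which sets new DNA methylation, rose from 18.8 ± 1.04 to 36.3 ± 3.43 CPM (0.95, edgeR adjusted p = 0.000392). The number that fell dropped to 3 without either dBET1 library, and EHMT1 was among those that lost the call.

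The genes most like EZH1 and EED over the 4 samples were sought among 9724 genes with a mean of at least 10 CPM, by the Euclidean distance of log2 CPM centred on each gene's mean. Nearest to EED were SNRPD3 (0.0250), MRPS22 (0.0313) and BCAT1 (0.0319). Nearest to EZH1 were ENSG00000278384 (0.0508), DNHD1 (0.0536) and LMBR1L (0.0552). With 4 samples in 2 groups such a distance mostly reflects the size of the change.

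RING1, PHF1, EHMT2 and CSNK2B lie in the HLA region of chromosome 6, for which Ensembl also lists alternative sequences. In the DMSO libraries RING1 was at 9.78 and 15.4 CPM and CSNK2B, chosen after its values were seen, at 36.0 and 54.3 CPM. Whether reads went to the alternative copies was not tested.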
